A study of Mus musculus with 4 samples.

Results

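The genes described here are 10 markers and regulators of the epithelial-mesenchymal transition (EMT): the transcription factor genes SNAI1, SNAI2, TWIST1, TWIST2, ZEB1 and ZEB2, the cadherin genes CDH1 and CDH2, the intermediate filament gene VIM and the epithelial adhesion gene EPCAM. They were chosen by name, as the rows of the deposited table whose symbol equals one of these, and all 10 were among its 23258 genes. By the labels, RNA was sequenced from gastric tumours of C57BL/6 mice of both sexes at postnatal week 20. There were 2 libraries labelled as from Mst4 KO mice (KO, genotype Mst4F/F UBCcre) and 2 as from wild-type mice (WT). Mst4 encodes a kinase of the STRIPAK complexes and is now named Stk26, or STK26 for the human gene. In this genotype a floxed Mst4 gene is combined with a Cre recombinase under the ubiquitin C promoter, which is active in most cell types, so the promoter does not limit the deletion to tumour cells. The labels do not state how the tumours arose, whether WT mice carried the Cre or the floxed allele, or whether each library came from its own animal. The p-values therefore measure the spread between libraries, which may be technical.

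In the EMT, cells of an epithelium loosen their junctions and take on features of migrating, fibroblast-like cells. The snail, twist and ZEB factors bind E-box sequences in regulatory DNA. The snail and ZEB factors repress epithelial genes, of which CDH1 (E-cadherin) is the best known. N-cadherin (CDH2) and vimentin are classical mesenchymal markers, and a fall of E-cadherin with a rise of N-cadherin is called the cadherin switch. In gastric cancer, loss of E-cadherin is known above all from the diffuse type.

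The rows of the table are human genes, not mouse genes. Each of the 23258 identifiers starts with G9606, and 9606 is the human taxon number. The symbols are human too, so KO and WT below mean the libraries so labelled. Whether the libraries hold mouse tumours or human material cannot be settled from the labels and the deposited rows. Library totals were 18613533 and 18701250 estimated counts in KO and 30505281 and 18804535 in WT. Levels scaled to library size are given in CPM, with library totals adjusted by the trimmed mean of M-values (TMM). The targeted gene, STK26, was at 9.03 and 7.36 CPM in KO, against 54.1 and 54.9 CPM in WT. WT replicate 1 stood apart. The KO libraries differed by over 2-fold in 54 of 11960 genes averaging 5 CPM or more (0.452%), and the WT libraries in 2443 (20.4%). Fold changes of the tested genes among the 10 are therefore given with and without WT replicate 1. Of 9 gastric epithelial markers in the table (10 listed), 1 reached a mean of 1 CPM, the proton pump subunit ATP4A, while TFF2, a peptide of mucous neck cells, had no counts in any library.

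Levels of the 10 genes were compared with each other per transcript length, on the deposited FPKM scale (fragments per kilobase of transcript, scaled to library size). VIM was far above the other 9, at 479.95 and 503.28 FPKM in KO, against 617.29 and 500.11 FPKM in WT. Its mean of 525.2 FPKM exceeded that of 99.2% of the 16030 genes tested. CDH1 was lowest in each library, at 0.05 and 0.03 FPKM in KO, against 0.09 and 0.04 FPKM in WT. Between these extremes lay the 6 transcription factor genes, CDH2 and EPCAM, with means between 2.18 FPKM (ZEB2) and 11.6 FPKM (TWIST2). TWIST2 (10.3 to 13 FPKM) and CDH2 (9.04 to 11.34 FPKM) overlapped, as did EPCAM (2.21 to 3.79 FPKM) and ZEB2 (1.77 to 2.75 FPKM). SNAI2 (6.15 to 8.39 FPKM) lay below CDH2 and above ZEB1 (3.83 to 5.46 FPKM) without overlap.

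SNAI1 and TWIST1 had no fixed place in that order. SNAI1 ran from 2.85 to 12.61 FPKM over the 4 libraries, and was at rank 8 of 10 in both KO libraries, against rank 2 in WT replicate 1 and rank 6 in WT replicate 2. TWIST1 ran from 3.24 to 10.25 FPKM, and was at rank 7 in both KO libraries, against rank 4 in WT replicate 1 and rank 8 in WT replicate 2. The ranges of both genes overlapped those of SNAI2, ZEB1, EPCAM and CDH2, and the range of SNAI1 also overlapped that of TWIST2.

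**Figure D1:**
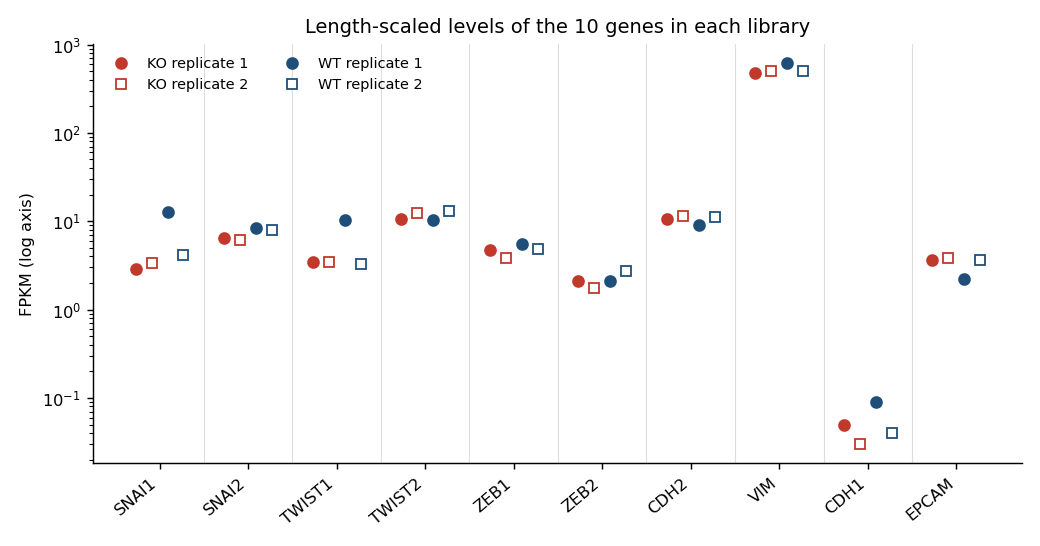
FPKM of the 10 genes (log axis), 1 point per library, with KO libraries left of WT libraries. VIM lies at 479.95 FPKM or more in each library and CDH1 at or below 0.09 FPKM, and SNAI1 and TWIST1 are raised in WT replicate 1.

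KO was set against WT to ask which transcripts respond to loss of MST4, and no gene among the 10 passed. CDH1 had too few counts to be tested, and of the 9 others the quasi-likelihood test of edgeR called 0 at a Benjamini-Hochberg adjusted p under 0.05 over all 16030 genes tested, where it called 0% of genes. At an unadjusted p under 0.05 it called 0 of the 9, against 668 genes overall (4.17%). DESeq2 called 0 of the 9 and 40 genes overall (0.25%), and limma-trend on FPKM as well as limma-voom gave 0 members. The log2 fold change of KO over WT was below 0 for 7 of the 9 and above 0 for CDH2 and EPCAM, with a median of -0.29, against 51.4% of all genes below 0 and a median of -0.01. Without WT replicate 1 it was again below 0 for 7 of the 9, against 48.3% of all genes. With 2 libraries against 2, an exact two-sided permutation test cannot give a p under 0.333, so a single gene cannot pass by that test.

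By position alone, both KO values lay below both WT values in CPM for 5 of the 9 tested genes, SNAI1, SNAI2, ZEB1, ZEB2 and VIM, where 19% of all genes did. The KO pair was above the WT pair for 1 gene, CDH2, where 18.4% of all genes did. TWIST1, TWIST2 and EPCAM overlapped. On the FPKM scale the KO values lay below the WT values for 3 genes, SNAI1, SNAI2 and ZEB1 (14.9% of all genes), and above them for 0 (22.2% of all genes).

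**Figure D2:**
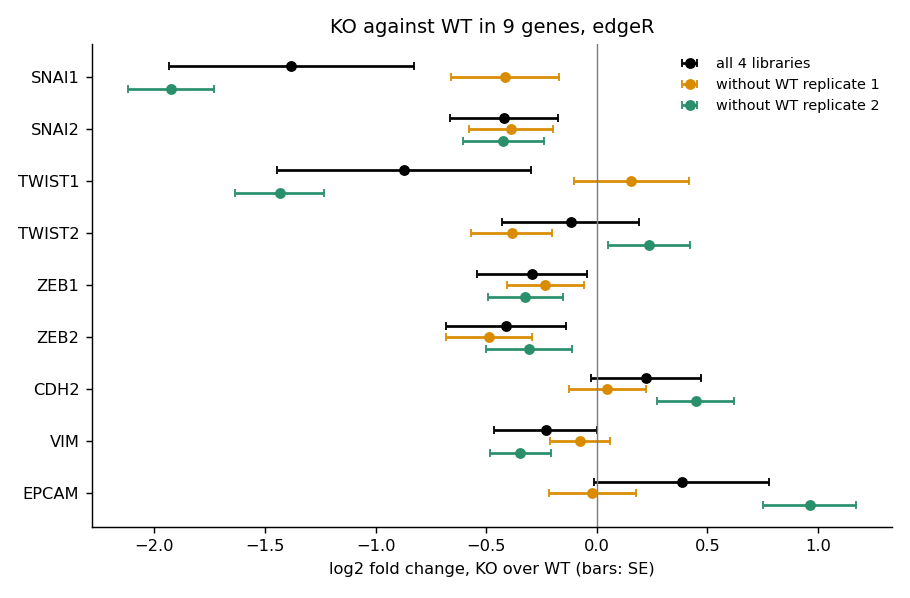
Log2 fold change of KO over WT by edgeR for the 9 tested genes, with SE bars, from all 4 libraries, without WT replicate 1 and without WT replicate 2. SNAI2, ZEB1 and ZEB2 stay below 0 with similar values. SNAI1, TWIST1, TWIST2, CDH2, VIM and EPCAM move with the WT library that is left out. TWIST2 is at -0.385 without WT replicate 1 and at 0.235 without WT replicate 2.

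SNAI1 encodes Snail, a zinc finger repressor of CDH1. It was at 6.33 and 6.65 CPM in the KO libraries (121.0 and 127.3 counts), against 25.05 CPM (replicate 1) and 8.62 CPM (replicate 2) in WT (738.4 and 159.6 counts). Both KO values were lower than both WT values, but the WT libraries were themselves 2.90-fold apart and the KO libraries 1.05-fold. The means were 6.49 ± 0.22 CPM in KO and 16.8 ± 11.6 CPM in WT (SD, n = 2 each). The log2 fold change was -1.38 (SE 0.55), and the edgeR test did not pass (adjusted p = 0.834, unadjusted p = 0.0542). It was -0.41 (SE 0.24, edgeR adjusted p = 0.409) without WT replicate 1.

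SNAI2 encodes Slug, the second snail factor, and its libraries of a genotype lay close together. It was at 14.7 and 13.9 CPM in KO (281.0 and 266.0 counts), against 19.5 and 18.8 CPM in WT (574.0 and 347.0 counts). The KO libraries were thus lower than both WT libraries, and WT replicate 1 was 1.04-fold above WT replicate 2. The means were 14.3 ± 0.59 CPM in KO and 19.1 ± 0.52 CPM in WT (SD, n = 2 each). Its log2 fold change was -0.42 (SE 0.25, edgeR adjusted p = 0.834), and -0.39 (SE 0.19, edgeR adjusted p = 0.266) without WT replicate 1. SNAI2 exceeded SNAI1 per length in both KO libraries, by a ratio of 2.28 and 1.81. In WT the ratio was 0.665 in replicate 1, where SNAI1 was higher, and 1.94 in replicate 2. The related gene SNAI3 was at 0 in both KO libraries, against 0.933 CPM in WT replicate 1 and 0 in WT replicate 2, and was not tested.

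TWIST1 and TWIST2 encode basic helix-loop-helix factors that act in mesoderm development. TWIST1 was at 6.69 and 6.87 CPM in KO, against 18.7 CPM (replicate 1) and 6.08 CPM (replicate 2) in WT. WT replicate 1 alone was high, WT replicate 2 was below both KO libraries, and the groups overlapped. The log2 fold change of TWIST1 was -0.87 (SE 0.57, edgeR adjusted p = 0.834), and without WT replicate 1 it was 0.16 (SE 0.26, edgeR adjusted p = 0.861). TWIST2 was at 16.8 and 20.2 CPM in KO, against 16.0 CPM (replicate 1) and 24.2 CPM (replicate 2) in WT. Its WT values enclosed its KO values, with a log2 fold change of -0.12 (SE 0.31, edgeR adjusted p = 0.921). With WT replicate 1 left out it was -0.39 (SE 0.18, edgeR adjusted p = 0.237). Per length TWIST2 exceeded TWIST1 by a ratio of 3.03 and 3.56 in KO, against 1.005 in WT replicate 1 and 4.01 in WT replicate 2.

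ZEB1 and ZEB2 encode zinc finger E-box binding homeobox factors, which repress CDH1 and are held down in epithelia by the miR-200 family. ZEB1 was at 35.3 and 27.7 CPM in KO, against 39.95 and 37.0 CPM in WT. Both KO values were lower, but the KO libraries were 1.28-fold apart and the nearest pair of KO and WT values differed by less than that. Its log2 fold change was -0.29 (SE 0.25, edgeR adjusted p = 0.834), and -0.23 (SE 0.17, edgeR adjusted p = 0.560) without WT replicate 1. ZEB2 was at 13.0 and 11.2 CPM in KO, against 15.2 and 17.0 CPM in WT, and the groups did not overlap in CPM. Its log2 fold change was -0.41 (SE 0.27, edgeR adjusted p = 0.834), and -0.49 (SE 0.20, edgeR adjusted p = 0.124) without WT replicate 1. Of the 9 genes, ZEB2 had the smallest p in the fit without that library. On the FPKM scale the ZEB2 groups overlapped, at 2.13 and 1.77 in KO and 2.08 and 2.75 in WT. ZEB1 exceeded ZEB2 per length in each library, by 2.21 and 2.16 in KO and 2.62 and 1.77 in WT.

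CDH1, the cadherin of epithelial adherens junctions and the main repressed target of these factors, was close to the detection limit in all 4 libraries. It had 4.66 and 3.5 estimated counts in KO, against 15.06 and 4.92 in WT. These are 0.244 and 0.183 CPM in KO, against 0.511 and 0.266 CPM in WT. The exact 95% Clopper-Pearson intervals, which cover counting error alone, were 0.0850 to 0.611 CPM and 0.0569 to 0.535 CPM in KO, and 0.285 to 0.839 CPM and 0.0877 to 0.630 CPM in WT. All 4 intervals overlapped, but overlap of such intervals does not test a difference. Both KO values lay below both WT values in CPM, whereas the FPKM values overlapped. With no filter on low counts CDH1 had a log2 fold change of -0.73 (SE 0.79, edgeR adjusted p = 0.839).

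CDH2, the cadherin of neural and mesenchymal cells, was at 44.7 and 44.1 CPM in KO, against 33.1 CPM (replicate 1) and 42.95 CPM (replicate 2) in WT. The KO libraries were 1.01-fold apart and both were above WT, with WT replicate 2 close to KO and WT replicate 1 lower. KO over WT gave a log2 fold change of 0.22 (SE 0.25, edgeR adjusted p = 0.841), and 0.05 (SE 0.17, edgeR adjusted p = 0.945) without WT replicate 1. Per length CDH2 exceeded CDH1 in all 4 libraries, by a ratio of 215 and 378 in KO and 100.4 and 277 in WT. These ratios rest on CDH1 values deposited with 2 decimals, and rounding alone allows 195 to 454 in KO and 95.1 to 316 in WT.

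VIM, which encodes the main intermediate filament of mesenchymal cells, was at 960.4 and 1005 CPM in KO, against 1270 CPM (replicate 1) and 1037 CPM (replicate 2) in WT. Both KO libraries were lower than both WT libraries in CPM, with WT replicate 2 near KO. The means were 983 ± 31.7 CPM in KO and 1153 ± 165 CPM in WT (SD, n = 2 each). KO over WT gave a log2 fold change of -0.23 (SE 0.23, edgeR adjusted p = 0.837), and -0.08 (SE 0.14, edgeR adjusted p = 0.876) without WT replicate 1. In FPKM the groups overlapped, since KO replicate 2 (503.28) was above WT replicate 2 (500.11).

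EPCAM, a surface adhesion protein of simple epithelia and of many carcinomas, was at 14.2 and 15.1 CPM in KO, against 7.64 CPM (replicate 1) and 14.8 CPM (replicate 2) in WT. WT replicate 1 was low and the other 3 libraries lay close together. For EPCAM the log2 fold change was 0.38 (SE 0.40, edgeR adjusted p = 0.837), and -0.02 (SE 0.20, edgeR adjusted p = 0.982) without WT replicate 1. Per length VIM exceeded EPCAM by a ratio of 132.6 and 132.8 in KO, against 279 in WT replicate 1 and 137 in WT replicate 2.

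**Figure D3:**
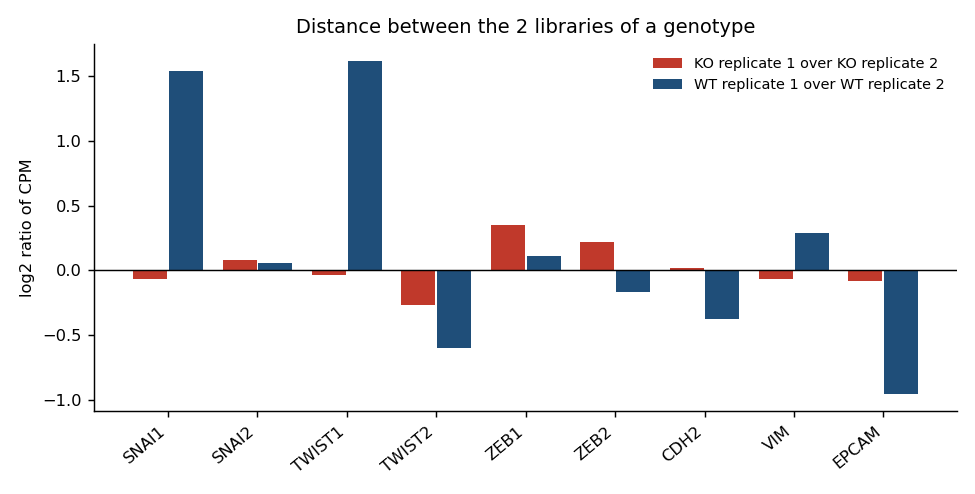
Log2 ratio of CPM between replicates 1 and 2 of KO (left bar) and of WT (right bar) for the 9 tested genes. SNAI1 and TWIST1 are over 2-fold apart between the WT libraries, and EPCAM is 1.94-fold apart in the other direction.

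The WT libraries were further apart than the KO libraries for 6 of the 9 genes, and closer for SNAI2, ZEB1 and ZEB2. SNAI1 (2.90-fold) and TWIST1 (3.07-fold) were over 2-fold apart in WT, and 0 of the 9 were in KO. Leaving out WT replicate 1 gave 0 calls among the 9 genes, where 6.46% of genes were called in that fit, 2.54% higher and 3.93% lower. The log2 fold change was then -0.49 (SE 0.20) for ZEB2, -0.39 (SE 0.19) for SNAI2 and -0.39 (SE 0.18) for TWIST2, and above 0 for CDH2 and TWIST1. The fold change came closer to 0 for 7 of the 9 genes, and moved away from it for TWIST2 and ZEB2. Leaving out WT replicate 2 gave 6 calls, where 51.3% of all genes were called, 25.2% higher and 26.1% lower. In that fit SNAI1 (-1.93, SE 0.19), TWIST1 (-1.43, SE 0.20), SNAI2 (-0.42, SE 0.18) and VIM (-0.35, SE 0.14) fell and EPCAM (0.96, SE 0.21) and CDH2 (0.45, SE 0.17) rose. Each fit without a WT library takes its spread from the KO libraries, and does not cover the distance between the WT libraries.

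The counts and the FPKM values of a gene in a library together give an implied transcript length, namely the count over the FPKM and the library total. Over the 12366 tested genes with a mean of at least 1 FPKM, the longest and shortest implied lengths of a gene differed by a median factor of 1.07, and by 2.39 for STK26. SNAI2 and VIM were steady, with a factor of 1.03 each. EPCAM had 4.04 and 4.07 kb in KO, against 3.34 and 4.01 kb in WT, a factor of 1.22. TWIST2 had 1.64 and 1.67 kb in KO, against 1.499 and 1.83 kb in WT, also a factor of 1.22, which exceeded that of 83% of genes. CDH2 had 4.27 and 3.98 kb in KO, against 3.54 and 3.82 kb in WT, a factor of 1.21. WT replicate 1 had the shortest value for 8 of the 9 tested genes, where it did so for 54.7% of those 12366 genes. The exception was ZEB2, for which that library had the longest value, 7.04 kb, against 6.24 and 6.46 kb in KO and 6.07 kb in WT replicate 2.

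Other EMT transcription factors gave 0 calls among 11 tested with all 4 libraries. The forkhead gene FOXC2 was at 9.45 and 11.9 CPM in KO, against 25.3 and 13.5 CPM in WT, and its relative FOXC1 at 16.8 and 18.5 CPM in KO, against 26.9 and 24.6 CPM in WT. Both were below WT without overlap in CPM, and were 2 of the 11 tested, where 19% of all genes were so placed. The log2 fold change was -0.87 (SE 0.39) for FOXC2 and -0.55 (SE 0.24) for FOXC1. The fit without WT replicate 1 gave -0.34 (SE 0.21) for FOXC2 and -0.48 (SE 0.18) for FOXC1. TCF3 encodes E-box binding proteins that pair with the twist factors. Without WT replicate 1 TCF3 rose by 0.57 on the log2 scale (SE 0.15). It was at 163.0 and 193.5 CPM in KO, against 233.8 CPM (replicate 1) and 120.1 CPM (replicate 2) in WT. WT replicate 1 was thus above both KO libraries and WT replicate 2 below them, and with all 4 libraries the log2 fold change of TCF3 was 0.01 (SE 0.37). Its relative TCF12 had -0.26 (SE 0.25), and -0.03 (SE 0.16) without WT replicate 1.

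Corepressors used by the snail and ZEB factors gave 0 calls among 12 tested with all 4 libraries, and a median log2 fold change of -0.02. The histone deacetylase gene HDAC1 was at 166.2 and 164.7 CPM in KO, against 104.3 and 126.6 CPM in WT, a log2 fold change of 0.52 (SE 0.23), and 0.39 (SE 0.15) without WT replicate 1. SMARCA4, a chromatin remodelling ATPase, had 0.43 (SE 0.23), and RCOR1, a partner of the demethylase KDM1A, -0.33 (SE 0.23). In the fit without WT replicate 1 they had 0.31 (SE 0.15) and -0.20 (SE 0.15). HDAC2 had 0.23 (SE 0.28) with all 4 libraries and -0.03 (SE 0.15) without WT replicate 1, so its sign turned. Genes that control the stability of the snail protein gave 0 calls among 11 tested with all 4 libraries. Among them LOXL2, a lysyl oxidase-like enzyme, was at 145.6 and 161.7 CPM in KO, against 846.2 CPM (replicate 1) and 163.8 CPM (replicate 2) in WT. The high value was again that of WT replicate 1. The kinase gene GSK3B, which marks Snail for degradation, had a log2 fold change of -0.19 (SE 0.23), the ubiquitin ligase gene FBXW11 -0.21 (SE 0.22) and COPS2 0.14 (SE 0.23). Without WT replicate 1 the 3 had -0.30 (SE 0.15), -0.25 (SE 0.16) and 0.02 (SE 0.14).

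Genes of the epithelial state were present in part. The splicing regulator ESRP1 did not exceed 0.860 CPM and the grainyhead factor GRHL2 did not exceed 0.222 CPM, and both were untested. OVOL2 and FOXA2 were at 0 in each library. Some of their relatives were expressed. ESRP2 was at 18.9 and 19.8 CPM in KO, against 21.7 and 20.8 CPM in WT. GRHL1 was at 4.45 and 4.38 CPM in KO, against 10.05 and 5.63 CPM in WT. FOXA1 was at 9.27 and 9.32 CPM in KO, against 9.20 and 8.59 CPM in WT. GRHL3 and OVOL1 did not exceed 0.509 and 0.475 CPM. The keratin genes KRT8 and KRT18 were at 1171 and 1382 CPM and at 764.8 and 837.7 CPM in KO, against 480.2 and 1759 CPM and 566.2 and 988.4 CPM in WT. WT replicate 1 was the lowest library for both, as it was for EPCAM. Other epithelial genes were highest there, among them DSP (306.9 CPM) and, near the detection limit, KRT19 (0.370 CPM) and CDH1 (0.511 CPM). Per length VIM was below KRT18 in KO, at ratios of 0.973 and 0.928, against 1.74 in WT replicate 1 and 0.814 in WT replicate 2. CLDN7, a claudin that binds EPCAM, was at 12.5 and 10.5 CPM in KO, against 72.2 CPM (replicate 1) and 10.4 CPM (replicate 2) in WT, so it was high in the library in which EPCAM was low.

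**Figure D4:**
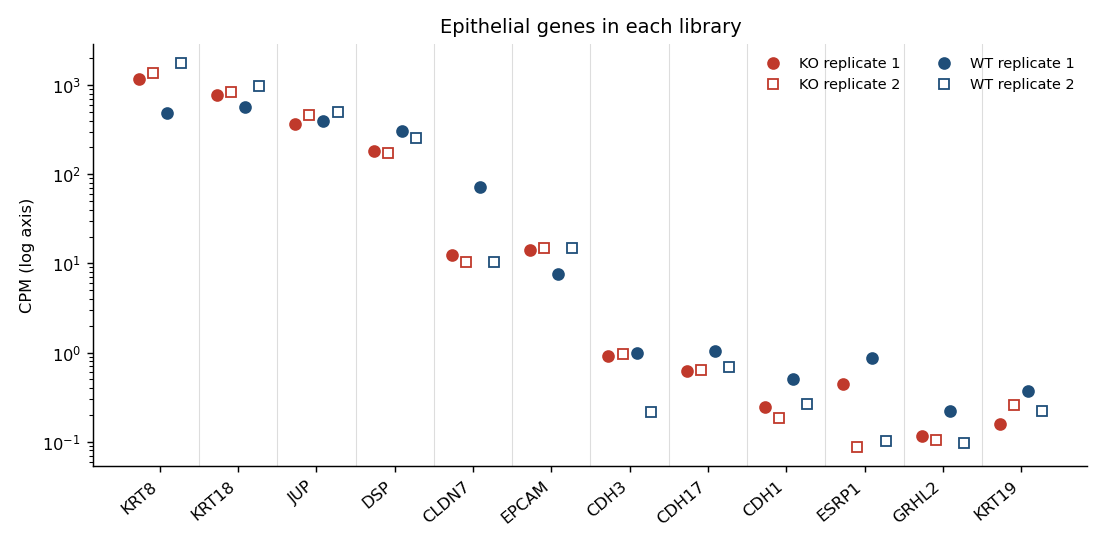
CPM of 12 epithelial genes (log axis), 1 point per library, with KO libraries left of WT libraries. CPM is not scaled by length, so heights compare libraries and not genes. KRT8, KRT18 and EPCAM are lowest in WT replicate 1. DSP, CLDN7, CDH3, CDH17, CDH1, ESRP1, GRHL2 and KRT19 are highest there. CDH1, ESRP1, GRHL2 and KRT19 stay under 1 CPM.

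Factors that maintain the epithelial state gave 0 calls among 8 tested with all 4 libraries. EHF, an ETS factor of epithelia, was at 31.4 and 26.5 CPM in KO, against 3.06 and 11.07 CPM in WT. Both KO libraries were above both WT libraries, and EHF rose without WT replicate 1 by 1.39 on the log2 scale (SE 0.20). It had 2.05 (SE 0.63, edgeR adjusted p = 0.834) with all 4. The Krüppel-like factor gene KLF4 was at 14.7 and 14.6 CPM in KO, against 33.0 and 25.4 CPM in WT. KLF5 was at 91.9 and 88.3 CPM in KO, against 154.9 and 140.7 CPM in WT. In the fit without WT replicate 1 they fell by 0.79 (SE 0.18) and 0.64 (SE 0.15). With all 4 libraries KLF4 had a log2 fold change of -0.997 (SE 0.259) and KLF5 -0.715 (SE 0.217), both with an edgeR adjusted p of 0.834. The ETS gene ELF3 had a log2 fold change of -1.08 (SE 0.61), and 0.13 (SE 0.18) without WT replicate 1.

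Other cadherins gave 0 calls among 9 tested with all 4 libraries. None reached the FPKM of CDH2. CDH13, a cadherin anchored by glycolipid, was at 11.2 and 9.72 CPM in KO, against 19.2 and 13.8 CPM in WT, and CDH24 at 16.2 and 16.5 CPM in KO, against 39.2 and 17.3 CPM in WT. The endothelial cadherin gene CDH5 was at 0.995 and 1.72 CPM in KO, against 2.38 and 2.97 CPM in WT. All 3 lay below WT without overlap in CPM, as did 6 of the 9 tested, where 19% of all genes did. In FPKM CDH24 overlapped, at 3.73 and 4.19 in KO and 8.85 and 3.67 in WT. The log2 fold change of CDH24 was -0.795 (SE 0.432) with all 4 libraries, and -0.084 (SE 0.191) without WT replicate 1. The placental cadherin gene CDH3 and the gut cadherin gene CDH17 did not exceed 0.982 and 1.05 CPM, and the osteoblast cadherin gene CDH11 did not exceed 0.152 CPM.

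Of the catenins, which tie cadherins to actin, several were well expressed although CDH1 was not, while CTNNA2 and CTNND2 did not exceed 0.414 and 0.295 CPM. CTNNA1 (alpha-catenin) was at 410.6 and 412.3 CPM in KO, against 429.6 and 474.4 CPM in WT, and JUP (plakoglobin) at 368.6 and 466.6 CPM in KO, against 398.9 and 493.2 CPM in WT. CTNNB1 (beta-catenin) was at 139.1 and 127.2 CPM in KO, against 179.7 and 186.2 CPM in WT, with a log2 fold change of -0.46 (SE 0.22, edgeR adjusted p = 0.834). The list gave 0 calls among 9 tested. Without WT replicate 1, CTNNB1 fell by 0.48 (SE 0.14) and the actin linker VCL (vinculin) by 0.46 (SE 0.14). With all 4 libraries VCL had -0.21 (SE 0.27). In the nectin system, AFDN was at 33.7 and 33.9 CPM in KO, against 81.1 CPM (replicate 1) and 35.2 CPM (replicate 2) in WT. NECTIN2 was at 48.4 and 53.99 CPM in KO, against 92.2 CPM (replicate 1) and 51.5 CPM (replicate 2) in WT. For both, WT replicate 1 alone stood high. The log2 fold change was -0.79 (SE 0.43) for AFDN and -0.49 (SE 0.34) for NECTIN2 with all 4 libraries, and -0.06 (SE 0.17) and -0.01 (SE 0.17) without WT replicate 1.

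Tight junction and desmosome genes gave 0 calls among 15 tested with all 4 libraries, and polarity and apical genes 0 among 14. DSP (desmoplakin) was at 180.8 and 172.0 CPM in KO, against 306.9 and 257.9 CPM in WT. The log2 fold change of DSP was -0.679 (SE 0.225, edgeR adjusted p = 0.834), and -0.55 (SE 0.14) without WT replicate 1. CLDN1, another claudin, had a log2 fold change of -1.03 (SE 0.46), and -0.45 (SE 0.33) without WT replicate 1. The junction scaffold gene TJP1 had 0.20 (SE 0.34) and the desmosomal cadherin gene DSG2 -0.11 (SE 0.22), and without WT replicate 1 both had -0.18 (SE 0.15), so that the sign of TJP1 turned. In the polarity list CD24, a surface glycoprotein gene, fell by 0.46 (SE 0.14) without WT replicate 1. With all 4 libraries CD24 had -0.10 (SE 0.34), and its counts are uncertain, since near-identical copies of the gene can share its reads. LLGL2, a basolateral polarity gene, was at 68.2 and 86.6 CPM in KO, against 50.2 and 62.2 CPM in WT. Both KO values were above both WT values, with a log2 fold change of 0.46 (SE 0.26), and 0.32 (SE 0.17) without WT replicate 1. The serine protease gene PRSS8 was at 0.267 and 0.539 CPM in KO, against 7.27 CPM (replicate 1) and 0.918 CPM (replicate 2) in WT. SPINT1, an inhibitor of such proteases, was at 4.03 and 4.96 CPM in KO, against 17.5 CPM (replicate 1) and 4.77 CPM (replicate 2) in WT. MUC1, an apical mucin, was at 83.4 and 105.8 CPM in KO, against 356.8 CPM (replicate 1) and 71.4 CPM (replicate 2) in WT. WT replicate 1 was the highest library for 11 of the 14 polarity and apical genes and for 9 of the 15 junction genes, where it was so for 40.6% of all genes tested.

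EPCAM partners and proteases gave 0 calls among 9 tested with all 4 libraries. The tetraspanin CD9 had a log2 fold change of -0.48 (SE 0.22), and -0.37 (SE 0.15) without WT replicate 1. FHL2, an adaptor of the cleaved EPCAM tail, had -0.84 (SE 0.32), and -0.43 (SE 0.17) without that library. CD44, a hyaluronan receptor, had 0.16 (SE 0.27), and its sign turned without that library (-0.09, SE 0.14). Intermediate filament genes and vimentin partners gave 0 calls among 9 tested with all 4 libraries. KRT7, a keratin of ducts and glands, was at 378.2 and 441.1 CPM in KO, against 600.6 and 967.1 CPM in WT. With all 4 libraries KRT7 had a log2 fold change of -0.94 (SE 0.31, edgeR adjusted p = 0.834) and the cytolinker PLEC -0.38 (SE 0.24). In the fit without WT replicate 1 KRT7 fell by 1.24 (SE 0.13), KRT8 by 0.46 (SE 0.13) and PLEC by 0.42 (SE 0.14). For KRT7 the library left out was the WT library nearer to KO. With all 4 libraries the log2 fold change of KRT8 was 0.19 (SE 0.61), so its sign turned. The muscle filament gene DES was at 4.08 and 3.86 CPM in KO, against 10.8 and 6.21 CPM in WT.

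Mesenchymal effector genes gave 0 calls among 15 tested by edgeR and 1, ITGA5, by DESeq2. Their median log2 fold change was -0.61, and -0.09 without WT replicate 1. Fibronectin (FN1) was at 196.1 and 203.6 CPM in KO, against 1640 CPM (replicate 1) and 240.9 CPM (replicate 2) in WT. WT replicate 1 was the high library for FN1, as it was for SNAI1 and TWIST1. ITGA5, a fibronectin receptor subunit, was at 129.0 and 139.3 CPM in KO, against 1301 and 292.3 CPM in WT, and ITGAV, another integrin subunit, at 81.05 and 70.7 CPM in KO, against 148.0 and 125.6 CPM in WT. With all 4 libraries the edgeR log2 fold change was -2.57 (SE 0.72) for ITGA5 and -0.85 (SE 0.23) for ITGAV, both with an adjusted p of 0.834. In the fit without WT replicate 1, ITGA5 fell by 1.12 (SE 0.14) and ITGAV by 0.73 (SE 0.15). In that fit the gelatinase gene MMP2 rose by 0.54 (SE 0.18). MMP2 was at 48.8 and 52.6 CPM in KO, against 161.1 CPM (replicate 1) and 34.8 CPM (replicate 2) in WT. With all 4 libraries its log2 fold change was -0.95 (SE 0.70), so its sign turned. S100A4, a calcium-binding protein used as a fibroblast marker, had a log2 fold change of 0.18 (SE 0.31), and the matrix protein SPARC -0.67 (SE 0.42). Both signs turned without WT replicate 1, to -0.12 (SE 0.14) for S100A4 and 0.04 (SE 0.14) for SPARC.

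**Figure D5:**
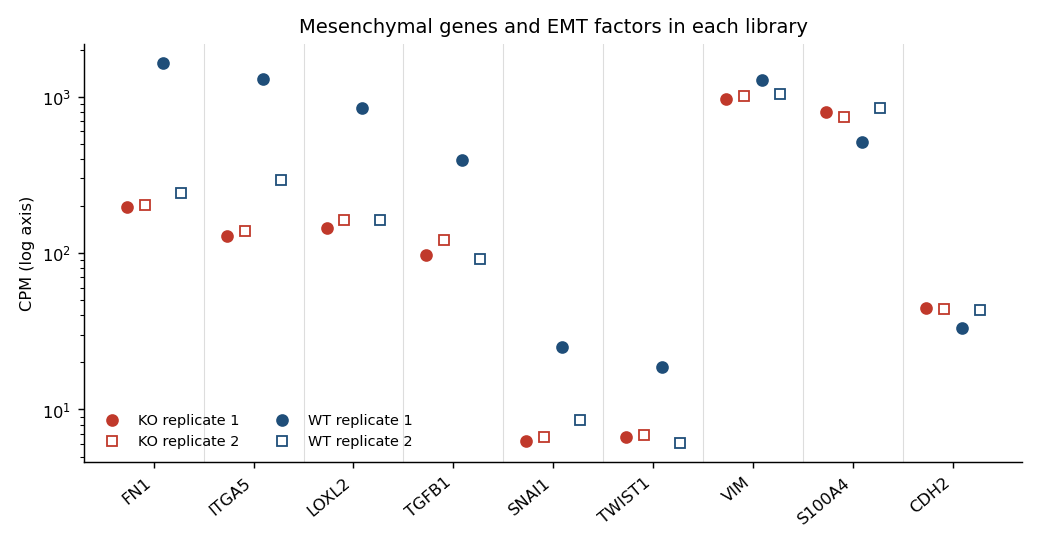
CPM of 9 mesenchymal genes and EMT factors (log axis), 1 point per library, with KO libraries left of WT libraries. Heights compare libraries and not genes. FN1, ITGA5, LOXL2, TGFB1, SNAI1 and TWIST1 are highest in WT replicate 1, whereas S100A4 and CDH2 are lowest there.

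Inducers of the EMT gave 0 calls among 15 tested. TGFB1, the best known of them, was at 97.6 and 121.7 CPM in KO, against 393.8 CPM (replicate 1) and 91.8 CPM (replicate 2) in WT, so that again 1 WT library was high. TGFB2 was at 15.4 and 14.5 CPM in KO, against 27.1 and 22.8 CPM in WT, and TGFB3 at 16.2 and 15.7 CPM in KO, against 6.11 and 10.9 CPM in WT. In the fit without WT replicate 1, TGFB2 fell by 0.61 (SE 0.19). The receptor-activated factor SMAD2 then fell by 0.53 (SE 0.14) and the Wnt ligand WNT5A by 0.73 (SE 0.14). With all 4 libraries TGFB2 had -0.74 (SE 0.25), SMAD2 -0.44 (SE 0.22) and WNT5A -0.55 (SE 0.24), each with an edgeR adjusted p of 0.834. HIF1A, the oxygen-regulated factor, had a log2 fold change of -0.23 (SE 0.24) with all 4 libraries, and -0.04 (SE 0.14) without WT replicate 1. Genes for processing of cadherins gave 0 calls among 8 tested. Without WT replicate 1 the sheddase ADAM15 rose by 0.44 (SE 0.15). ADAM15 was at 141.7 and 170.8 CPM in KO, against 393.7 CPM (replicate 1) and 115.0 CPM (replicate 2) in WT. With all 4 libraries its log2 fold change was -0.70 (SE 0.59), so its sign turned. The glycosyltransferase MGAT5 had -0.72 (SE 0.36), the secretase subunit NCSTN -0.26 (SE 0.25) and the convertase FURIN -0.07 (SE 0.27). In the fit without WT replicate 1 these were -0.19 (SE 0.17), -0.02 (SE 0.15) and 0.17 (SE 0.14), so that the sign of FURIN turned.

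Several of these genes are also made by stromal cells, and in bulk RNA fewer cells of a type and less RNA per cell cannot be told apart. Summed over 8 fibroblast markers, of which 5 reached a mean of 1 CPM, the level was 115.9 and 136.0 CPM in KO, against 192.9 CPM (replicate 1) and 140.8 CPM (replicate 2) in WT. COL1A1 made up most of this sum, PDGFRB (21.4 to 24.6 CPM) and LUM (4.70 to 18.8 CPM) came next, and COL1A2, PDGFRA and THY1 did not exceed 0.162 CPM. Endothelial markers summed to 2.87 and 4.84 CPM in KO and 8.07 and 6.29 CPM in WT (3 of 5 at 1 CPM or more). Leukocyte markers summed to 17.04 and 20.4 CPM in KO and 41.5 and 23.3 CPM in WT (3 of 6 in the table). The macrophage markers CD68 (13.0 to 34.1 CPM) and CSF1R (1.37 to 4.18 CPM) made up most of this sum, and PTPRC, which marks all leukocytes, did not exceed 0.492 CPM. Smooth muscle markers summed to 20.5 and 19.1 CPM in KO and 28.3 and 25.8 CPM in WT (3 of 5). Of 3 erythroid markers in the table, 0 reached a mean of 1 CPM. The part of other cell types in the values of VIM, SNAI1, SNAI2, TWIST1, TWIST2, ZEB1 and ZEB2 was not tested.

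The genes most like each of the 9 were sought among the 11960 genes averaging 5 CPM or more, by the distance between log2 profiles over the 4 libraries centred on their means. This describes 4 points per gene, and many genes share such a profile. Nearest to SNAI1 were SIK1 (distance 0.0508), ARNT2 and CRISPLD2, with 37 genes within 0.2. SIK1, a salt-inducible kinase, was at 170.5 and 170.4 CPM in KO, against 629.8 and 219.9 CPM in WT. Nearest to TWIST1 were GRAMD4, CA12 and KLF10, with 98 genes within 0.2. KLF10, a zinc finger factor induced by TGF-beta, was at 68.0 and 67.0 CPM in KO, against 172.7 and 59.1 CPM in WT. Nearest to SNAI2 were PALM3, LOC102546294 and SLBP (314 within 0.2), and to TWIST2 the actin cross-linker gene FLNA, NDST1 and SCNM1 (102 within 0.2). For ZEB1 they were CUTA, NFE2L3 and DOP1A (184 within 0.2), and for ZEB2 CHRNA5, CEPT1 and LIN52 (165 within 0.2). CDH2 was nearest to ZNF16, UBFD1 and CMAS (1234 within 0.2). VIM was nearest to STAG3L4, AKR1B1 and ZMYND19 (767 within 0.2), and EPCAM to EWSR1, TIMM50 and NUP188 (534 within 0.2).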

How the data were processed

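Per the submitters' processing notes, the tools named are HISAT2, Cufflinks and RSEM and the build is GRCm38.p5, although the symbols are human. The sources give neither roles nor versions, nor an annotation or strand setting. The authors deposited an estimated count per gene and library, and a second value, not named by the authors, taken here as FPKM since its sums per library differ (441772 to 452971) and it implies plausible transcript lengths. No human sequence or annotation was used, so no coordinates are given.

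Rounded counts passed filterByExpr, were scaled by TMM and went into edgeR 4.0.16 (quasi-likelihood, robust, R 4.3.3), with no term but genotype and Benjamini-Hochberg adjustment over all genes tested. The SE of an edgeR fold change is its size over the square root of F. Other settings tried were scaling by RLE or by the upper quartile, no filter or 5 CPM in 2 libraries, DESeq2 1.42.0, limma-voom and limma-trend (limma 3.58.1) on log2(FPKM + 1) or log2(FPKM + 0.1) for genes averaging 1 FPKM or more, or unfiltered with 1 added, each library left out, and the replicate number as a block. The edgeR, DESeq2 and voom fits were tested on simulated data with the same spread in all libraries. That setting does not cover a library that stands apart. Python 3.11.15 drew the figures.

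The 10 genes and all lists were chosen with earlier results of these data known. Of each list the 3 genes with the smallest p at a mean of at least 1 CPM and the 2 with the highest FPKM were named, together with STK26, CDH3, CDH11, CDH17, GRHL2, ESRP1 and the 3 nearest profiles of each gene. Some genes that this rule names are not reported here. Genes at or near 0, the relatives ESRP2, GRHL1 and FOXA1, and genes called without WT replicate 1 were also named after their values were seen.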

Additional observations from a re-analysis of the deposited data

How the results depend on the processing

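The count of called members was 0 under each scaling, filter, test and block tried with all 4 libraries. It ranged from 0 to 6 over the fits that leave out 1 library each, with 6 only without WT replicate 2. Over all genes, edgeR called 0, DESeq2 40, the fit with the replicate number as a block 10, and the fits without 1 library 0 to 8702. Libraries of the same number had only a weak tendency to deviate in opposite directions (correlation -0.244 across 11960 genes), and nothing in the labels pairs them. A crossed pairing, added after seeing the data, called 4 genes and 0 members. The log2 fold change turned sign without WT replicate 1 for EPCAM (-0.020) and TWIST1 (0.156), and for TWIST2 without WT replicate 2 (0.235) and without KO replicate 1 (0.020). The cause was not tested. TWIST2 was at -0.385 without WT replicate 1, and without WT replicate 2 EPCAM was at 0.962 and TWIST1 at -1.433. SNAI1, SNAI2, ZEB1, ZEB2 and VIM stayed below 0 and CDH2 above 0 in all 15 alternatives. The range was -1.93 to -0.41 for SNAI1, -0.45 to -0.33 for SNAI2, -0.46 (without KO replicate 1) to -0.11 (without KO replicate 2) for ZEB1, -0.51 to -0.21 for ZEB2 and -0.35 to -0.08 for VIM. Where 1 library is left out, the lone library of its genotype is taken to vary as the other genotype does. With 3.5 to 15.06 estimated counts per library, depth limits CDH1.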
